A study of Caenorhabditis elegans with 48 samples.

Results

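The change of miRNA levels across the falling side of the first cycle of larval growth was examined in wild type (WT) Caenorhabditis elegans by setting the 4 hourly libraries of 12 to 15 h against the 4 hourly libraries of 8 to 11 h. These 8 libraries were chosen by their labelled genotype and sampling hour, out of 48 small RNA libraries that cover 24 hours of WT and 24 hours of lin-28(0). Every group carried the transgene xeSi312, in which the broadly active eft-3 promoter drives a luciferase and GFP reporter. WT animals (strain HW1993) held this transgene with an unc-119(+) marker and nothing else, and the lin-28(0) animals (strain HW2706), used for 1 comparison, also held the lin-28(xe192) allele, a CRISPR deletion that takes out the lin-28 locus. Larvae synchronised at the first larval stage were grown at 25°C in shaken liquid culture with OP50 bacteria as food, at 1000 animals per mL, with no treatment, and whole animals were sampled each hour. Each genotype was 1 culture, so the 4 hours of a window stood in for replicates, and every p-value here measures the spread between hours of that culture and not between cultures. Because whole animals were sequenced, fewer cells making a miRNA and less of it per cell cannot be told apart.

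A miRNA is cut from a hairpin precursor as a duplex of a 5p and a 3p strand. An Argonaute protein usually keeps one of them, the guide, which pairs with messenger RNAs and represses them, while the other, the passenger or star strand, is mostly discarded. In this worm the miRNAs lin-4 and let-7 set the order of larval cell fates, and many larval genes are transcribed in pulses that recur with each molt. Here, of both strands of a hairpin, the one with the larger mean share of counts over all 48 libraries is called the guide and the other the passenger. By this count miR-241-5p, the let-7-like strand of its precursor, is a passenger, and so are miR-42-3p, miR-43-3p, miR-49-3p, miR-77-3p, miR-230-5p, miR-788-5p and miR-790-5p, all of which the study models as guides. Conversely miR-41-5p counts as a guide here, although the study models miR-41-3p, which was not tested here.

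Levels are shares of the miRNA reads of a library, scaled to 1000000 counts (CPM). Values of a window are listed in the order of their hours. The libraries held 2315421 (15 h) to 8363136 (13 h) miRNA counts at 12 to 15 h and 3444437 (11 h) to 9714387 (10 h) at 8 to 11 h, and the 10 most abundant strands took 69.2% to 73.2% of them. A single count was worth 0.432 CPM at 15 h, the shallowest library, and 3 counts 1.30 CPM. Of 437 listed strands, 246 averaged 10 or more counts across the 48 libraries and were tested, and the other 191 were not. On log2 values the library of 11 h was closer to the later window (mean correlation 0.983) than to its own (0.980), while the other 7 libraries were closer to their own window. Strands known for muscle, neurons, intestine or glia gave no call. miR-1-3p of muscle had a log2 change of -0.05 and miR-60-3p of intestine one of 0.73, and all 6 such strands were detected in each of the 8 libraries.

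Across the step, 8 strands rose and 7 fell at an adjusted p under 0.01 in edgeR's quasi-likelihood test, 15 of 246 or 6.1%. The rises made up 3.25% of the tested strands and the falls 2.85%. At an adjusted p under 0.05 there were 19 rises (7.72%) and 15 falls, 34 in all (13.8%). The median log2 change over all tested strands was 0.0055, and the hourly levels of the windows did not overlap for 46 strands (18.7%), 20 of them higher at 12 to 15 h (8.13%) and 26 lower (10.6%). The calls lay close to the threshold. Leaving out 1 library at a time left 9 calls without 8 h, 2 without 9 h, 0 without 10 h, 18 without 11 h, 8 without 12 h, 0 without 13 h, 2 without 14 h and 1 without 15 h. In each of these fits every one of the 15 strands kept its direction and an adjusted p of at most 0.0395.

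Among the called strands the largest fall was that of lin-4-3p, the star strand of lin-4. It stood at 1.15, 0.598, 0.587 and 0.864 CPM at 12 to 15 h, against 9.97, 31.3, 12.6 and 4.06 CPM at 8 to 11 h. At 9 h it was at its highest of all 24 WT hours, and from 12 h on it was within a few counts of 0, with 6, 5, 4 and 2 counts in the 4 libraries of 12 to 15 h. The log2 change was -4.09 ± 0.66 SE, adjusted p = 0.00655. Before 7 h it gave no count, and a second peak of 19.9 CPM followed at 17 h. The star strand of let-7 pointed the same way on far fewer counts, with 0 counts at 12 to 15 h and 17 counts at 8 to 11 h. Pooled over its 4 libraries, the 8 to 11 h level was 0.602 CPM (95% exact Poisson interval 0.351 to 0.964, counting error only). That estimate was 4.56-fold the 0.132 CPM that 3 counts over the 12 to 15 h libraries would give, and the lower end of the interval lies nearer to it. edgeR's test did not call let-7-3p (adjusted p = 0.135). All 17 of these counts came from 8 to 10 h, and a spline of the hour over the 24 WT libraries gave a log2 change of the other sign, 0.79 (adjusted p = 0.672).

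The 3p strands of the miR-35 family, which are needed in the embryo, were lower at 12 to 15 h as a group. The study describes faster decay of their embryonic pool on entry into the first larval stage, and rhythmic levels of the family in larvae. Of 8 members listed 7 were tested, and all 7 had negative log2 changes with a median of -0.91, against 0.0055 over all strands. Their summed level was 2568, 1945, 1669 and 1459 CPM at 12 to 15 h and 2680, 4470, 4996 and 4016 CPM at 8 to 11 h, so that the sum was highest at 10 h and the windows were apart by a narrow margin between 12 h and 8 h. At the threshold of 0.01 only miR-42-3p fell among them, while 6 of the 7 passed 0.05 and miR-38-3p did not (adjusted p = 0.168). miR-42-3p stood at 32.7, 26.9, 20.3 and 32.0 CPM at 12 to 15 h, against 107, 92.0, 94.7 and 56.9 CPM at 8 to 11 h (log2 change -1.51 ± 0.25 SE, adjusted p = 0.00655), and the windows were well apart. The most abundant members were miR-39-3p, with 775, 505, 597 and 472 CPM at 12 to 15 h and 854, 1294, 1350 and 1332 CPM at 8 to 11 h (log2 -0.89 ± 0.20 SE, adjusted p = 0.0151), and miR-35-3p, with 669, 549.8, 387 and 360.2 CPM and 659.7, 1089, 1320 and 937 CPM (log2 -0.88 ± 0.24 SE, adjusted p = 0.042). For miR-35-3p the windows met, since 12 h was above 8 h.

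The 5p strands that come from the hairpins of miR-35 to miR-41, whose genes lie in 1 cluster, had larger changes. All 6 tested were negative, with a median log2 change of -1.69, and the windows were apart for 5 of them. Their summed level was 63.9, 48.2, 49.5 and 34.6 CPM at 12 to 15 h, against 182.5, 317.9, 164.4 and 110.03 CPM at 8 to 11 h, with the peak at 9 h, an hour before that of the 3p strands. miR-41-5p fell and stood at 30.6, 21.5, 24.1 and 20.7 CPM at 12 to 15 h, against 89.0, 145, 72.4 and 45.6 CPM at 8 to 11 h (log2 -1.71 ± 0.33 SE, adjusted p = 0.00957). miR-37-5p fell as well, with 9.38, 11.8, 12.0 and 6.91 CPM at 12 to 15 h and 32.6, 41.6, 24.1 and 21.8 CPM at 8 to 11 h (log2 -1.42 ± 0.26 SE, adjusted p = 0.00947). miR-39-5p had the largest change of the group and missed the threshold narrowly. Its levels were 16.5, 7.05, 6.02 and 2.59 CPM at 12 to 15 h and 46.2, 105, 52.5 and 31.6 CPM at 8 to 11 h (log2 -2.69 ± 0.53 SE, adjusted p = 0.0102), lower at each later hour from 9 h on. Both miR-41-5p and miR-37-5p had later peaks of 79.1 and 32.8 CPM at 17 h.

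The remaining falls were miR-70-5p, miR-52-3p and miR-67-5p. miR-70-5p is the star strand of miR-70 and was near 0 at the first sampling, with 0.984 CPM at 0 h. It stood at 29.1, 28.7, 20.3 and 35.4 CPM at 12 to 15 h, against 75.8, 112, 66.6 and 71.1 CPM at 8 to 11 h (log2 -1.38 ± 0.24 SE, adjusted p = 0.00745), and was back at 103 CPM at 18 h. miR-52-3p is the star strand of miR-52, an abundant member of the miR-51 family that embryos depend on. It gave 93.8, 74.3, 84.2 and 72.6 CPM at 12 to 15 h and 208, 285, 232 and 173 CPM at 8 to 11 h (log2 -1.32 ± 0.18 SE, adjusted p = 0.00489), so that the highest later hour and the lowest earlier hour were 93.8 and 173 CPM. miR-67-5p, the more abundant strand of its precursor by count, gave 206, 109, 126 and 145 CPM at 12 to 15 h and 288, 358, 467 and 412 CPM at 8 to 11 h (log2 -1.23 ± 0.23 SE, adjusted p = 0.00947), with its peak at 10 h and its lowest value at 13 h. The plot of the 7 falls by hour shows that each was highest between 8 and 10 h, that each was higher at 18 h than at any hour from 12 to 15 h, and that each was within or below its 12 to 15 h range at 22 h.

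**Figure D1:**
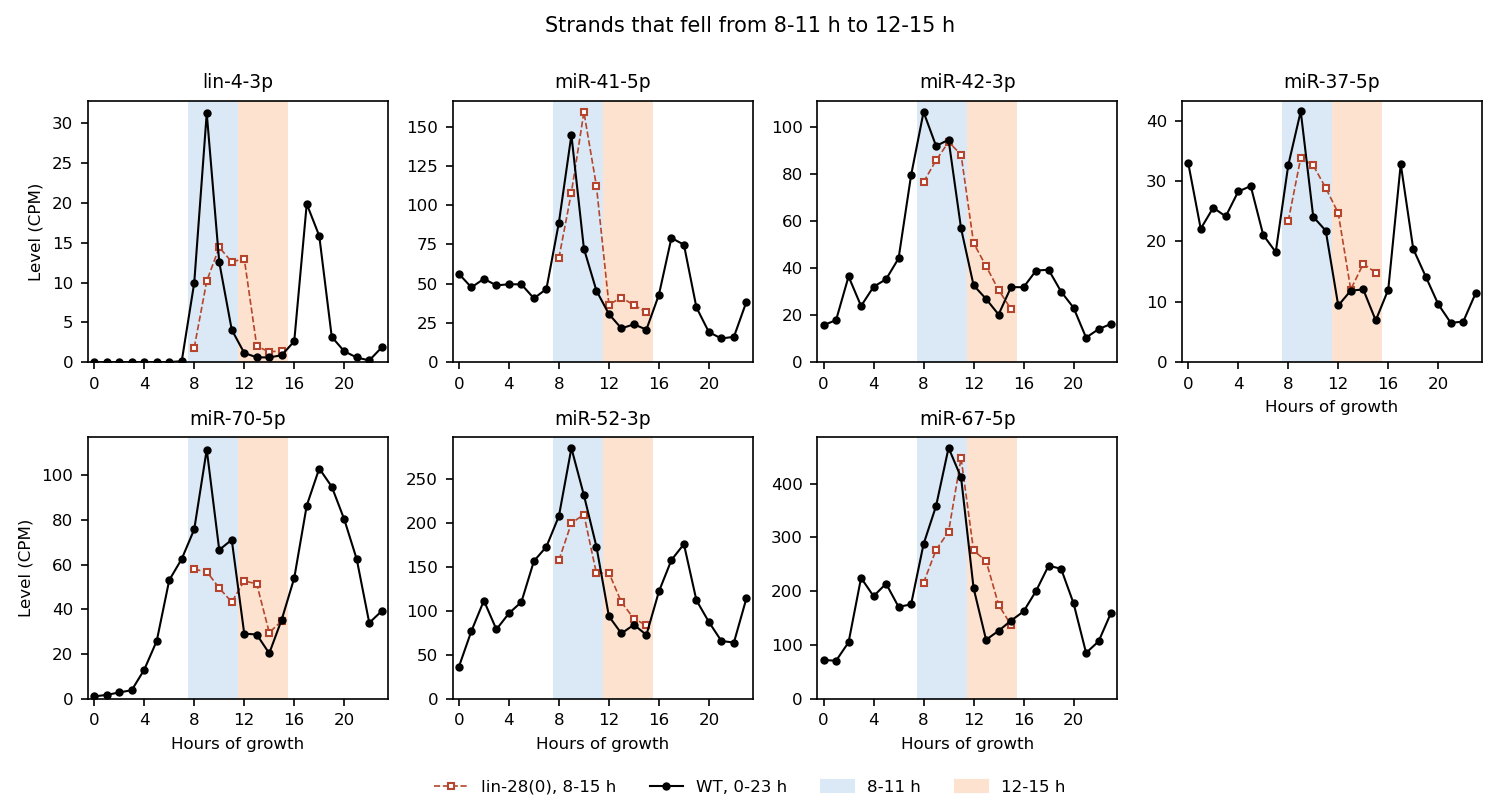
Levels in CPM (linear axes from 0) of the 7 strands that fell, by hour of growth, in WT at 0 to 23 h (filled circles) and in lin-28(0) at 8 to 15 h (open squares), 1 library per point, with the windows shaded. In WT every point of the 12 to 15 h window lies under every point of the 8 to 11 h window, and lin-4-3p is at or below 1.15 CPM there.

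The largest rise was that of miR-77-3p, the less abundant strand of miR-77 in these libraries, whose level was 25.5, 76.8, 54.3 and 66.1 CPM at 12 to 15 h, against 0.791, 3.20, 5.56 and 9.58 CPM at 8 to 11 h (log2 change 3.76 ± 0.62 SE, adjusted p = 0.00655). From 0 to 7 h it had been at or below 1.27 CPM, and it reached 221 CPM at 21 h. miR-246-3p had the smallest adjusted p of the step. This miRNA is known for extending worm lifespan, and it stood at 22.0, 25.9, 22.3 and 16.0 CPM at 12 to 15 h, against 2.53, 1.14, 1.85 and 4.06 CPM at 8 to 11 h (log2 3.41 ± 0.36 SE, adjusted p = 0.00141). The lowest of the later hours, 15 h, rested on 37 counts (95% exact Poisson interval 11.3 to 22.0 CPM), and the highest of the earlier hours, 11 h, on 14 counts (2.22 to 6.82 CPM). At 0 to 7 h it had held 3.35 to 11.3 CPM. After the step it stood at 6.98 CPM at 19 h and at 98.3 CPM at 21 h.

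Both miR-71 and miR-34, miRNAs tied to stress survival in the worm, rose on their star strands. miR-71-3p gave 753, 1017, 788 and 799 CPM at 12 to 15 h, against 367, 204, 163 and 309 CPM at 8 to 11 h (log2 1.80 ± 0.29 SE, adjusted p = 0.00655), with its trough at 10 h. miR-34-3p gave 531, 691, 763 and 498 CPM at 12 to 15 h, against 173, 157, 192 and 302 CPM at 8 to 11 h (log2 1.72 ± 0.25 SE, adjusted p = 0.00563), and 11 h was already the highest of its earlier hours. Its guide, miR-34-5p, was not called and stood between 2125 and 2380 CPM at 12 to 15 h and between 1951 and 2351 CPM at 8 to 11 h (log2 0.18 ± 0.12 SE, adjusted p = 0.39).

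Among abundant guides, miR-81-3p and miR-238-3p rose by less than 1 on the log2 scale. miR-81-3p belongs to the bantam-related miR-58 family, and it held 104730, 117120, 93414 and 115690 CPM at 12 to 15 h, against 74779, 71661, 81455 and 75777 CPM at 8 to 11 h (log2 0.65 ± 0.10 SE, adjusted p = 0.00563). Its genomic neighbour and family member miR-82-3p had 82564, 90418, 74438 and 79143 CPM at 12 to 15 h and 73962, 64037, 73757 and 67455 CPM at 8 to 11 h (log2 0.36 ± 0.09 SE, adjusted p = 0.0322) and passed only 0.05. miR-58a-3p, the third abundant member, was at 98967, 67383, 85599 and 61965 CPM at 12 to 15 h and 68165, 107560, 94250 and 137190 CPM at 8 to 11 h (log2 -0.23 ± 0.22 SE, adjusted p = 0.522), and it was scattered in both windows with 11 h highest. The summed level of the family was 292170, 281530, 258750 and 263810 CPM at 12 to 15 h and 222600, 249690, 256320 and 286400 CPM at 8 to 11 h, which overlap. miR-238-3p is a lifespan-extending miRNA whose relative miR-239 acts the other way. It gave 2313, 2884, 3249 and 2871 CPM at 12 to 15 h and 1728, 1987, 2149 and 1981 CPM at 8 to 11 h (log2 0.67 ± 0.13 SE, adjusted p = 0.00947). Its relatives miR-239b-5p (log2 2.52 ± 0.53 SE, adjusted p = 0.0139) and miR-239a-5p (log2 0.64 ± 0.27 SE, adjusted p = 0.168) had positive changes and did not pass 0.01. The size of the rise of miR-81-3p kept between 0.38 and 0.67 and that of miR-238-3p between 0.45 and 0.69 over all settings tried, but the call of miR-238-3p was lost under most other normalizations, filters and tools, with an adjusted p of 0.00017 to 0.0293 (up to 0.0395 with 1 library left out).

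The last pair of rises was small in counts. miR-66-3p gave 9.38, 11.2, 12.9 and 9.93 CPM at 12 to 15 h and 5.86, 7.08, 6.28 and 6.39 CPM at 8 to 11 h (log2 0.91 ± 0.17 SE, adjusted p = 0.00947), and the 15 h value had 23 counts behind it. Its call was the least stable of the 15, since it passed 0.01 in 5 of 20 other settings and in none with a library left out, and its log2 change was 0.26 (adjusted p = 0.243) at the lowest. miR-797-3p, a member of the miR-2 family, gave 4.59, 3.11, 3.97 and 4.75 CPM at 12 to 15 h and 0.317, 1.14, 0.412 and 1.74 CPM at 8 to 11 h (log2 2.43 ± 0.46 SE, adjusted p = 0.00947), and rested on 2 to 10 counts in each of the earlier libraries. Its neighbour in the genome, miR-247-3p, stood at 3.06, 2.87, 5.29 and 9.07 CPM at 12 to 15 h and 0.475, 1.48, 1.44 and 1.45 CPM at 8 to 11 h and passed only 0.05 (log2 2.10 ± 0.48 SE, adjusted p = 0.019). Of the 8 rises miR-797-3p, miR-246-3p and miR-81-3p were higher at every hour from 21 to 23 h than at every hour from 12 to 15 h.

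**Figure D2:**
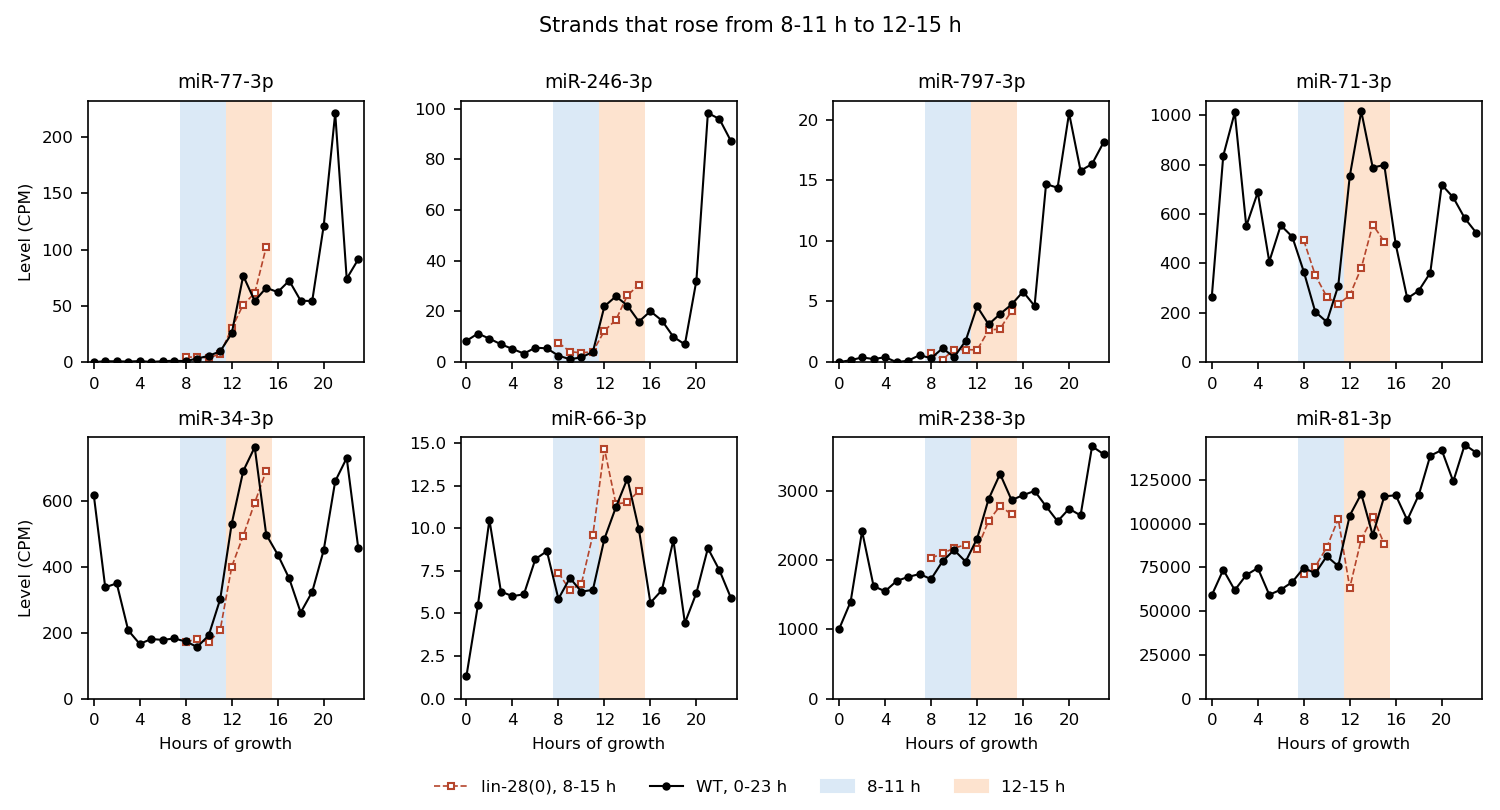
Levels in CPM (linear axes from 0) of the 8 strands that rose, by hour of growth, in WT at 0 to 23 h (filled circles) and in lin-28(0) at 8 to 15 h (open squares), 1 library per point, with the windows shaded. In WT every point at 12 to 15 h lies above every point at 8 to 11 h, by the narrowest margin for miR-238-3p, where 12 h stands at 2313 CPM and 10 h at 2149 CPM.

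Several strands without a call spanned a wide range over the 8 hours but turned within a window. miR-235-3p, which holds larval blast cells at rest in the absence of food, spanned 17.0-fold, and its largest change between neighbouring hours lay between 10 and 11 h. It stood at 22184, 24652, 22285 and 18593 CPM at 12 to 15 h, against 3185, 1452, 3170 and 16699 CPM at 8 to 11 h, and the windows were apart although 11 h was close to the later ones (log2 1.95 ± 0.68 SE, adjusted p = 0.109). Without 11 h it was called, with a log2 change of 3.15 (adjusted p = 0.000687), and it was also called with all 48 libraries in the fit. miR-77-5p, the more abundant strand opposite miR-77-3p, made a pulse with its top at 13 h, with 406, 496, 104 and 50.5 CPM at 12 to 15 h and 8.71, 12.8, 13.6 and 173 CPM at 8 to 11 h (log2 2.46 ± 1.13 SE, adjusted p = 0.206). At 15 h miR-77-3p, at 66.1 CPM, was therefore above miR-77-5p, at 50.5 CPM. miR-71-5p, an abundant guide, went through a trough at 10 h, with 32989, 51935, 77268 and 97930 CPM at 12 to 15 h and 101410, 35864, 8019 and 11625 CPM at 8 to 11 h (log2 0.84 ± 0.76 SE, adjusted p = 0.522). miR-788-3p peaked at 10 h and had 119, 77.1, 82.8 and 94.2 CPM at 12 to 15 h and 58.2, 303, 590.2 and 209.6 CPM at 8 to 11 h (log2 -1.46 ± 0.54 SE, adjusted p = 0.133).

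The 5p strands of miR-42, miR-43 and miR-44, whose genes lie side by side, shared a trough at 12 h. miR-44-5p had 168, 311, 465 and 609 CPM at 12 to 15 h and 2870, 1496, 657 and 298 CPM at 8 to 11 h (log2 -1.65 ± 0.69 SE, adjusted p = 0.168), higher at each hour from 12 to 15 h. miR-42-5p had 68.5, 86.9, 179.9 and 250.5 CPM and 875, 465, 190.4 and 120.5 CPM in the same windows (log2 -1.37 ± 0.67 SE, adjusted p = 0.242), and miR-43-5p 13.2, 24.5, 46.1 and 46.6 CPM and 207, 157, 57.0 and 32.8 CPM (log2 -1.68 ± 0.63 SE, adjusted p = 0.137). All 6 tested strands of these 3 hairpins had negative changes with a median of -1.44, and only miR-42-3p fell. With the adjacent gene of miR-45, 7 of 8 were negative (median -0.84), and miR-45-5p had a change of 0.66 (adjusted p = 0.3). The guide miR-44-3p, which shares reads with the near-identical miR-45-3p so that their separate values are uncertain, stood at 27571, 27647, 28746 and 23683 CPM at 12 to 15 h and 35495, 41330, 37777 and 32443 CPM at 8 to 11 h (log2 -0.31 ± 0.09 SE, adjusted p = 0.0477). Among the 179 strands that averaged 10 CPM or more in the 8 libraries, 40 were highest at 9 h and 26 at 15 h, and 41 were lowest at 8 h and 48 at 15 h.

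**Figure D3:**
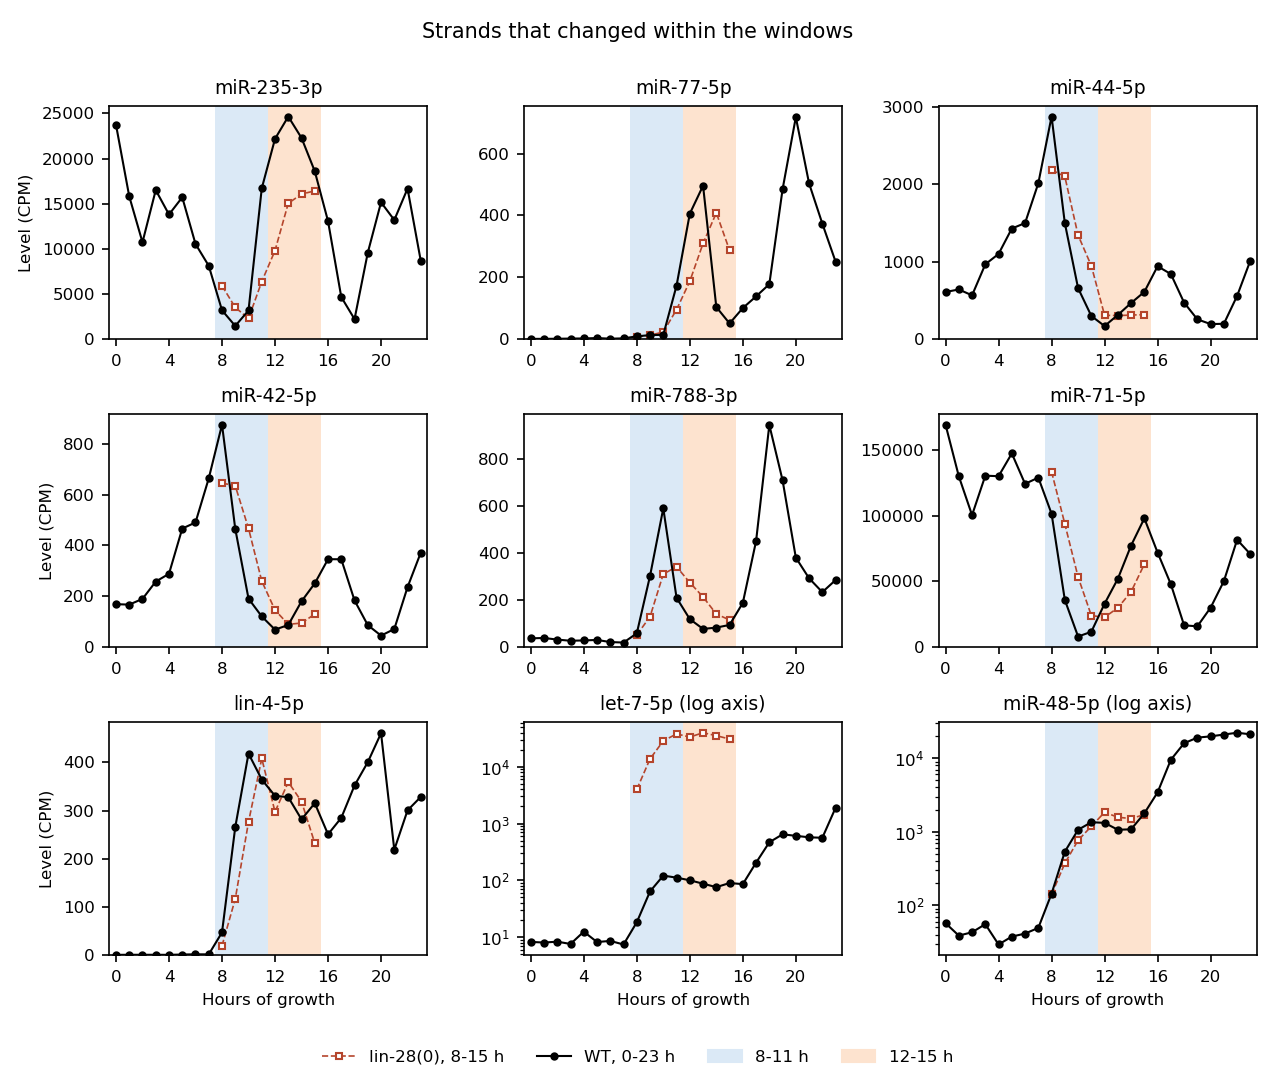
Levels in CPM of 9 strands with large changes inside the windows and no call, by hour of growth, in WT at 0 to 23 h (filled circles) and in lin-28(0) at 8 to 15 h (open squares), 1 library per point. Axes are linear from 0 except for let-7-5p and miR-48-5p, which have log axes. In WT miR-235-3p and miR-71-5p have troughs at 9 and 10 h, miR-788-3p a peak at 10 h, and miR-42-5p and miR-44-5p troughs at 12 h.

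The guides that time larval fates rose before the step and were not called in it, except with a spline of the hour over the 24 WT libraries. That spline gave log2 changes of 1.80 for lin-4-5p, 1.35 for let-7-5p and 2.45 for miR-48-5p (adjusted p = 0.000866, 0.00116 and 2.23e-06). How well this smooth curve of 6 components follows levels that change within a few hours was not tested. Against 4 to 7 h, 9 strands rose at 8 to 11 h with an adjusted p under 0.01 (3.66% of those tested) and 0 fell, with 18 calls under 0.05 (7.32%) and 64 strands at an unadjusted p under 0.05. The 8 to 11 h libraries enter both comparisons, so their changes are tied by construction and are given side by side. lin-4-5p had a log2 change of 0.36 ± 0.50 (SE) across the step, after 7.70 in the earlier one, with 331, 328, 282 and 315 CPM at 12 to 15 h and 47.0, 266, 418 and 364 CPM at 8 to 11 h. let-7-5p had 0.33 ± 0.46 after 2.97, with 99.9, 87.0, 75.6 and 89.4 CPM and 18.2, 63.6, 121 and 111 CPM. miR-48-5p, a let-7 sister, had 0.93 ± 0.55 after 4.16, with 1321, 1065, 1079 and 1782 CPM and 144, 536, 1063 and 1348 CPM. For all 3 guides every hour from 12 to 15 h was above the 9 h value, but at 9 h they were still below their 11 h levels. Against 11 h, lin-4-5p (364 CPM) and let-7-5p (111 CPM) were lower at every hour from 12 to 15 h. Against its 11 h level of 1348 CPM, miR-48-5p was lower at 12 to 14 h and higher at 15 h. The star strands lin-4-3p and let-7-3p were below their 9 h values at each hour from 12 to 15 h. The star strand miR-48-3p was below its 9 h value of 7.88 CPM at 12 to 14 h and above it at 15 h, at 16.4 CPM. Of the other 6 strands that had risen, miR-48-3p (0.20 ± 0.66), miR-241-5p (0.99 ± 0.51) and miR-241-3p (0.86 ± 0.50) had positive changes across the step, and lin-4-3p, miR-39-5p and miR-788-3p the negative ones given above.

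Several strands of the let-7 sisters were highest at 15 h. miR-241-3p stood at 126, 112, 195 and 500.1 CPM at 12 to 15 h and 81.5, 173, 188 and 140.2 CPM at 8 to 11 h, with 15 h above all other hours, and miR-84-3p at 41.3, 32.4, 87.8 and 153 CPM and 70.6, 73.7, 58.2 and 33.4 CPM. Of the 7 tested 5p strands of the let-7 family, 6 had positive changes (median 0.41) and none was called at 0.01. miR-795-5p came closest, with 834, 950, 1073 and 1229 CPM at 12 to 15 h and 589, 499.8, 634 and 730.2 CPM at 8 to 11 h (log2 0.88 ± 0.19 SE, adjusted p = 0.0139). Of the 5 tested 3p strands 4 were positive. In the lin-4 family miR-237-5p was at 932, 817, 736 and 1031 CPM and 735, 867, 932 and 835 CPM (log2 0.21 ± 0.15 SE, adjusted p = 0.4), and miR-237-3p had a log2 change of -1.02 ± 0.55 with 15 h again the highest of the later hours at 13.8 CPM.

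In other families the changes were mostly small. All 8 tested strands of the clustered genes of miR-64 to miR-66 and miR-229 had positive changes with a median of 0.50, and miR-66-3p alone was called. In this cluster the star strands had the larger values, with log2 changes of 1.00 for miR-64-3p, 1.01 for miR-65-3p and 0.57 for miR-229-3p, against 0.02 to 0.42 for the 4 guides. miR-229-3p, a star strand only by the mean over all 48 libraries, stood at 10472, 11304, 10337 and 12665 CPM at 12 to 15 h and 9234, 8010, 8177 and 7697 CPM at 8 to 11 h (log2 0.57 ± 0.12 SE, adjusted p = 0.0151). In these 8 libraries it was on average above miR-229-5p, with a mean log2 ratio of 0.89 at 12 to 15 h and 0.73 at 8 to 11 h. Of the 11 tested strands of miR-51 to miR-56, the miR-51 family, 10 had negative changes (median -0.24 over the 11), and miR-52-3p alone was called. The 6 guides among them ran from -0.45 for miR-54-3p to -0.10 for miR-55-3p, and the exception in sign was miR-51-3p at 0.11. The abundant guides miR-72-5p (log2 -0.15 ± 0.06 SE, adjusted p = 0.167) and miR-57-5p (log2 -0.08 ± 0.11 SE, adjusted p = 0.675) were among the 5 highest strands and were not called. The 3 guides of miR-72, miR-73 and miR-74 had negative changes (median -0.15). Their passengers had positive ones, 0.62 for miR-72-3p, 0.18 for miR-73-5p and 0.21 for miR-74-5p, and were not called.

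**Figure D4:**
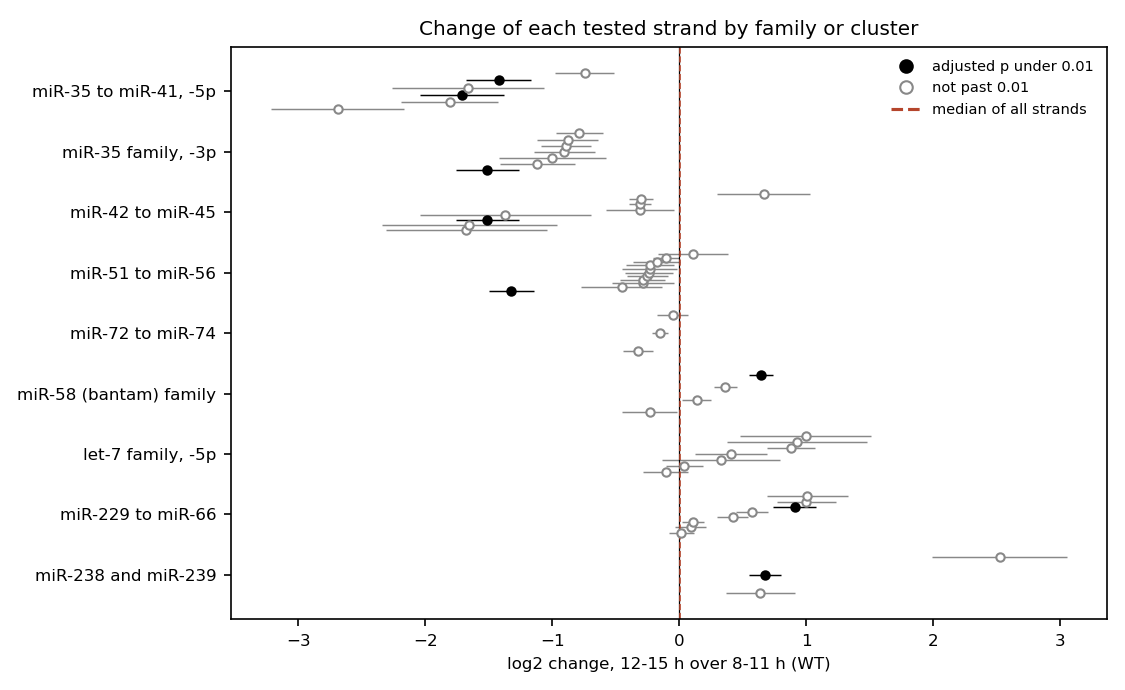
Log2 change from 8 to 11 h to 12 to 15 h in WT (x axis, positive where 12 to 15 h is higher) for tested strands of 9 families or clusters (rows), with bars of 1 standard error. The rows of miR-72 to miR-74, of the miR-58 family and of miR-238 and miR-239 show 1 strand per hairpin. For miR-72 to miR-74 the strands left out had positive changes. Filled points have an adjusted p under 0.01 and the dashed line is the median of all 246 strands, 0.0055. The strands of the miR-35 group lie left of 0 and those of the miR-229 cluster right of it.

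The families of miR-2 (6 strands, median 0.16, of which miR-797-3p rose), of miR-44 (4 strands, -0.05), of miR-50, miR-62 and miR-90 (3 strands, 0.14), of miR-75 and miR-79 (4 strands, -0.14), of miR-49 and miR-83 (2 strands, -0.47), of miR-251 and miR-252 (2 strands, 0.06) and of miR-87-3p, miR-233-3p and miR-356b-5p (3 strands, -0.10) gave no other call, and neither did the pair of strands tested from the miR-240 and miR-786 cluster (0.65). The miRNAs that the study treats as sensitive to EBAX-1, an adaptor protein of a miRNA degradation route, are the miR-35 family, miR-235, miR-71, miR-247 and miR-788. Of 10 tested strands of the first 4, 7 were negative and 3 positive with a median of -0.89, and 1 fell. The 7 negative ones were the miR-35 family strands already given above, so the median mainly repeats that family. The 3 positive ones were miR-235-3p (1.95), miR-71-5p (0.84) and miR-247-3p (2.10). For miR-788 the 5p strand, which the study models as the guide, had a change of 0.24 and the 3p strand one of -1.46. The list is the study's own, and the libraries behind it were not analysed here. Of 9 tested strands of miR-235, miR-71, miR-788, miR-246, miR-230 and miR-244, miR-246-3p and miR-71-3p rose and the median was 0.84. These precursors were put together with earlier results of these data known. Over all 246 strands 8 rose (3.25%) and 7 fell (2.85%) at an adjusted p under 0.01.

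Passengers, the less abundant strands by count, had larger changes than guides. The median size of the log2 change was 0.42 over 84 passengers and 0.23 over 144 guides, and 10.7% of passengers and 4.17% of guides were called, against 6.1% of all strands. The passengers also had fewer reads, with a median of 27.0 CPM against 149 CPM for guides, and a larger median standard error, 0.27 against 0.21, so the part that depth plays in this was not tested. Within the 84 precursors that had both strands tested, the passenger changed more than its guide in 59, and both had the same sign in 58. The log2 ratio of passenger to guide (CPM plus 1) had windows that did not overlap for 10 precursors (11.9%), higher at 12 to 15 h for 6 (7.14%) and lower for 4 (4.76%). By exact two-sided permutation test with 4 libraries against 4 the smallest possible p is 0.0286, these 10 reached it, and after adjustment over 84 precursors the smallest was 0.24, so that none passed.

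The ratio was lower at 12 to 15 h for lin-4, miR-39, miR-797 and miR-52. For lin-4 it was -7.46 ± 0.17 at 12 to 15 h and -4.07 ± 1.83 at 8 to 11 h (SD over 4 libraries each), the largest shift of all, which came from the star strand. It was higher at 12 to 15 h for miR-34 (-1.90 ± 0.32, against -3.47 ± 0.45 at 8 to 11 h), miR-788 (-0.76 ± 0.33, against -2.20 ± 0.87), miR-67 (-4.58 ± 0.48, against -5.63 ± 0.12), miR-64, miR-1822 and miR-66. For miR-34 the star strand rose while the guide was not called, and for miR-788 and miR-67 the more abundant strand had the larger change of the pair, with miR-788-5p, the less abundant one here, at 63.0, 55.4, 58.2 and 41.5 CPM at 12 to 15 h and 23.1, 36.9, 78.7 and 67.4 CPM at 8 to 11 h.

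**Figure D5:**
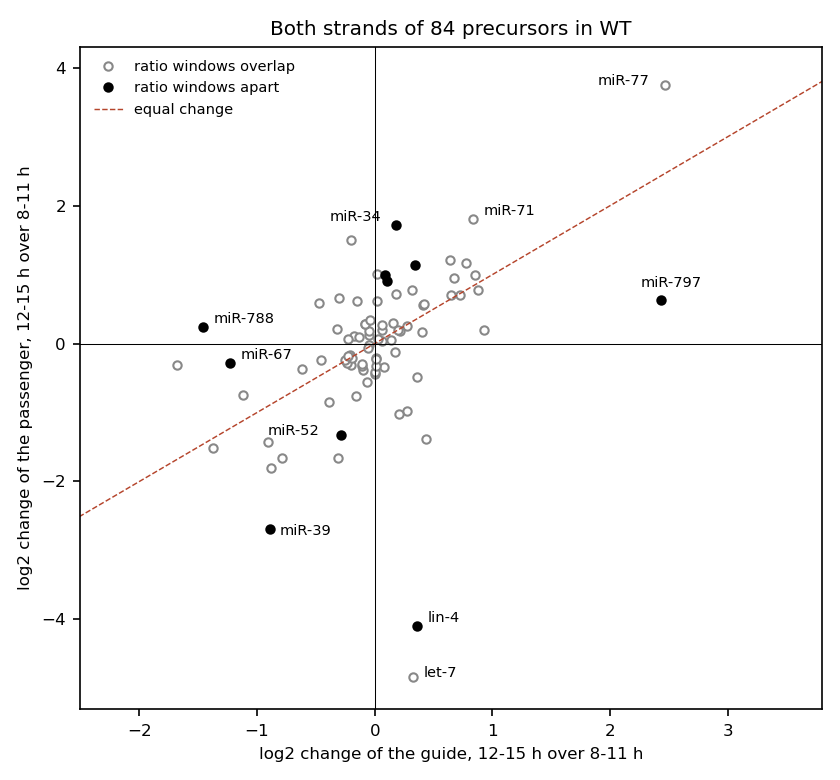
Log2 change from 8 to 11 h to 12 to 15 h of the guide (x axis) and of the passenger (y axis) of 84 precursors in WT, positive where 12 to 15 h is higher. Filled points are the 10 precursors whose passenger-to-guide ratio did not overlap between the windows, and the dashed line marks equal change. lin-4 and let-7 lie far below the line with guides near 0, and miR-34 lies above it.

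The same step was examined about 9 h later, at 21 to 23 h against 17 to 20 h, and all 15 strands had the same sign there. How many of all 246 strands kept their sign was not counted, so the 15 have no background share beside them. The test of this later step called 0 strands at an adjusted p under 0.01 (0.0%) and 6 under 0.05 (2.44%), 5 of them falls (2.03%). Without adjustment 43 strands had a p under 0.05, and DESeq2 called 14. lin-4-3p stood at 0.879 CPM on average at 21 to 23 h and 10.1 CPM at 17 to 20 h (log2 change -3.58 ± 1.11 SE). miR-246-3p stood at 93.8 CPM and 16.4 CPM (2.61 ± 0.48, adjusted p = 0.0308). The miR-35 family had a median of -1.31 in the later step, with miR-37-3p at -1.31 ± 0.22 (adjusted p = 0.0308). Across all 246 strands the changes of the cycles had a Pearson correlation of 0.49 and a Spearman correlation of 0.56, and 0.68 and 0.59 over the 179 strands with at least 10 CPM. The steps share no library but come from the same culture, and strands are not independent. The difference between the cycles, later minus first, was called for 0 strands by edgeR and DESeq2, with 21 strands at an unadjusted p under 0.05 in edgeR and a smallest adjusted p of 0.108.

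The lin-28(0) culture, which lacks an RNA-binding protein that blocks the processing of let-7, gave the same step from other animals. Of its 246 strands 31 were called between 12 to 15 h and 8 to 11 h (12.6%), 23 of them higher (9.35%) and 8 lower (3.25%). This step was tested in a joint fit with the WT libraries of the same hours, while the WT step was fitted alone. The numbers of calls in the genotypes are therefore not comparable. The 15 strands had the same sign as in WT in each case, 7 passed 0.01 in lin-28(0) (5 rises and 2 falls), and the windows of 6 were apart. Shared signs and separate windows were not counted over all 246 strands. Across these the changes in WT and lin-28(0) had a Pearson correlation of 0.73 and a Spearman correlation of 0.55. The change was smaller in size in lin-28(0) for all 15 (median 0.79, against 1.51 in WT), a direction that choosing them by their change in WT favours. miR-34-3p, miR-77-3p and miR-41-5p had nearly the same change in both. For miR-34-3p it was 1.64 in lin-28(0) and 1.72 in WT, for miR-77-3p 3.70 and 3.76, and for miR-41-5p -1.55 and -1.71.

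Other strands turned at a later hour in lin-28(0) than in WT. In lin-28(0) lin-4-3p held 13.0, 2.02, 1.27 and 1.45 CPM at 12 to 15 h and 1.82, 10.2, 14.4 and 12.6 CPM at 8 to 11 h, so that its drop lay between 12 and 13 h, and miR-71-5p was lowest at 12 h in lin-28(0) and at 10 h in WT. The hours of the genotypes were not matched by developmental progress, so a later hour and a smaller change cannot be told apart. The difference of the step, lin-28(0) minus WT, was called for 0 of 246 strands in edgeR (54 at an unadjusted p under 0.05, smallest adjusted p 0.0718) and for 0 in DESeq2. With the sampling hour as a block 2 strands passed. miR-230-5p had 156, 261, 298 and 276 CPM at 12 to 15 h and 532, 389, 369 and 323 CPM at 8 to 11 h in lin-28(0), against 309, 733, 588 and 1022 CPM and 468, 319, 310.0 and 198 CPM in WT, a difference of -1.70 ± 0.23 (SE, adjusted p = 0.00244 with the block, 0.0798 without). miR-36-3p had 657, 489, 416 and 334 CPM at 12 to 15 h and 336, 514, 521 and 577 CPM at 8 to 11 h in lin-28(0), against 358, 274, 229 and 177 CPM and 311, 745, 801 and 651 CPM in WT, a difference of 1.17 ± 0.16 (adjusted p = 0.00244 with the block, 0.139 without).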

How the data were processed

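Whole larvae were sampled hourly, with 1 small RNA library per genotype and hour. Adapters were trimmed by the authors in QuasR, reads were placed on ce10 by Bowtie with an upper limit on hits per read, and the deposited counts take reads whose 5′ end lay within a few bases of that of a miRBase strand. Of Bowtie, no version is given in the sources used here. The deposited tables hold raw counts per strand and log2 values that the authors made from them, and log2 values recalculated from the counts matched within 0.0005. Several sequencing runs from both a TruSeq and a CleanTag kit were made, and which of them entered the counts is not stated. Counts of strands that share reads, for example miR-44-3p with miR-45-3p, are uncertain. Depth ran from 2315421 to 9714387 counts per library over the 8 libraries.

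Strands that averaged 10 or more counts across the 48 libraries were tested with edgeR 4.0.16 (glmQLFit and glmQLFTest, TMM, R 4.3.3), and p-values were Benjamini-Hochberg adjusted over 246 strands with a threshold of 0.01. The step was fitted on its 8 libraries, as were the earlier step and the later one on theirs. The step within lin-28(0) was taken from the fit that also held the WT libraries of the same hours. The differences between genotypes and cycles were interaction contrasts. Ratios of passenger to guide used CPM plus 1 and an exact permutation test. The code was tested on simulated data. The 28 pairs among the 8 libraries held no duplicate. Neighbouring genes were taken from RefSeq names on WBcel235, where 142 of 162 precursors matched, with a limit of 10000 bases. No positions or sequences are printed, because neither a ce10 genome nor a table of miRNA sequences was used here. Alternatives were library totals, DESeq2 size factors, DESeq2 1.42.0, limma 3.58.1 on log2 of the scaled count plus 8, other filters, an hour covariate, all 48 libraries, a spline, an hour block, a threshold of 0.05, each library left out and, chosen after seeing the data, the hours 11 and 12 left out.

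Named were the 12 largest rises and falls past the threshold with at least 10 CPM and no overlap, all let-7 and lin-4 family strands, the 5 highest strands, and up to 4 strands per list for 22 lists of families, clusters and tissue strands. For the ratio, the 6 precursors with the largest rise and fall had been planned. The 10 precursors whose ratio windows did not overlap were named in their place. miR-34-5p, miR-35-3p, miR-39-3p, miR-71-5p, miR-77-5p, miR-230-5p and the other strands outside this rule were named after their values were seen. The strands and lists were chosen with earlier results of these data known. Intervals and floors (3 counts) reflect counting error alone, because reads copied by PCR and lacking molecular identifiers do not stand for separate molecules.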

Additional observations from a re-analysis of the deposited data

Results flagged for a closer look

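Of 168 groups of 4 hourly levels (84 named strands in 2 windows), 9 held 1 library that stood far from the other 3 by Dixon's criterion, and chance alone flags about 1 group in 20. At 15 h, the shallowest library, miR-241-5p stood at 25.0 CPM, against 6.70 to 7.93 CPM at 12 to 14 h, and miR-237-3p at 13.8 CPM, against 4.42 to 6.02 CPM. At 11 h miR-235-3p stood at 16700 CPM, against 1450 to 3180 CPM at 8 to 10 h, miR-75-5p at 109 CPM, against 64.4 to 70.5 CPM, and miR-49-3p at 11.0 CPM, against 29.3 to 32.9 CPM. At 8 h miR-38-3p stood at 43.7 CPM, against 101 to 104 CPM at 9 to 11 h, miR-247-3p at 0.475 CPM, against 1.44 to 1.48 CPM, miR-233-3p at 1030 CPM, against 1160 to 1180 CPM, and miR-124-3p at 18.4 CPM, against 34.5 to 34.8 CPM. All 9 libraries lay at an end of their window.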

How the results depend on the processing

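The 15 called strands kept their direction in all 20 other settings, and no strand was called in every one of them. Of 84 named strands 21 took both signs over the settings, 14 of them also with the spline set aside. The spline gave 0.75 for miR-788-3p and 1.13 for miR-237-3p, which were -1.46 and -1.02 as reported. The step gave 32 calls with DESeq2 (18 rises and 14 falls), 28 with all 48 libraries in the fit (15 and 13), 34 at an adjusted p of 0.05 (19 and 15) and 51 with a spline of the hour (30 and 21), of which 8 were among the 15. The rises numbered 5 with library totals, which moved the median of all strands to -0.14, 5 at a mean count of at least 100, and 5 without the boundary hours of 11 and 12 h, where 11 strands were called, 8 of them among the 15. Leaving out 1 library gave 0 to 18 calls, 0 to 10 rises and 0 to 8 falls. Without 10 h 0 strands were called in edgeR (53 at an unadjusted p under 0.05), and without 13 h 0 (56). The share of rises among calls was 53.3% as reported, 38.5% with library totals and 66.7% without 8 h. The earlier step gave 9 calls, 20 with DESeq2, 14 with the hour within the window as a covariate, 19 with all 48 libraries, 18 at 0.05, and 3 to 15 with 1 library left out. The later step gave 0, 14 with DESeq2, 1 with the hour covariate, 11 with all 48 libraries, 6 at 0.05, and 0 to 4 with 1 library left out. The passenger-to-guide ratio had 10 windows apart, 5 where both strands had a mean count of at least 100, and 11 to 15 with 1 library left out. With 1 library fewer, windows that were apart stay apart, so this last count could not drop and is no check of the 10. The causes were not tested. The difference between genotypes gave 2 calls with the sampling hour as a block and 0 without it. No paired analysis was possible for the other comparisons because the labels give no replicate numbers and the windows share no hours. The depth of 15 h, where 3 counts are 1.30 CPM, limits low strands most.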
